A study of Mus musculus with 5 samples.

Results

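The E2F transcription factors and the pocket proteins that bind them were examined in prostate tumor tissue as 10 genes taken by symbol from a table of read counts for 24527 genes. They were the activator E2Fs E2f1, E2f2 and E2f3, the canonical repressors E2f4 and E2f5, the atypical repressors E2f7 and E2f8, and the pocket protein genes Rb1, Rbl1 and Rbl2. All 10 passed the filter on low counts and were among the 14612 genes tested. The 5 samples were tumors of separate TripleTg mice, 3 castrated at 4 months of age and 2 left intact, all analyzed at 8 months by bulk RNA-seq after depletion of ribosomal RNA. Castrated and intact mice had the same genotype, H11 hMET/+ and Ctnnb1 L(Ex3)/+ together with hHGFtg and PB Cre4, on mixed C57BL/6 and C3H SCID backgrounds. It combines a human HGF transgene active throughout the body, a human MET transgene at the H11 locus that Cre switches on, and an exon 3 allele of Ctnnb1 that yields stabilized β-catenin after Cre. Cre was driven by the probasin promoter, a promoter of prostate epithelium that depends on androgen, and tissue without these alleles was not analysed here. Numbering the mice by their replicate labels, castrated mice 1, 2 and 3 had 28015507, 18951782 and 20492061 counts in total, and intact mice 1 and 2 had 21560355 and 22853501. In bulk tissue, fewer cells of a type and less RNA per cell cannot be told apart.

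Pocket proteins hold E2F factors inactive on their target promoters until cyclin-dependent kinases phosphorylate them late in G1, which frees the activator E2Fs to turn on genes for DNA replication. E2F4 and E2F5 act mainly in resting and early G1 cells, in complexes with the Rbl1 and Rbl2 products and the MuvB core that keep cell cycle genes silent, whereas E2F7 and E2F8 bind no pocket protein, are themselves made during S phase under E2F control and then shut E2F targets down. Loss of RB1 is known from advanced prostate cancer that no longer depends on androgen.

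The labelled tissue was checked first. Luminal epithelial markers were abundant in every mouse, with a CPM (counts scaled to library size with TMM factors) of 875, 777 and 1144 for the keratin gene Krt8 in castrated mice 1, 2 and 3, and of 1155 and 661 in intact mice 1 and 2. Basal epithelial markers differed widely between the intact mice, with a CPM of 28.9 and 405 for Krt5 and of 6.09 and 101 for Trp63 in intact mice 1 and 2, and of 90.5 to 290.3 and 21.6 to 88.3 in castrated mice. Intact mouse 2 stood apart in prostate secretory transcripts. Tgm4, a secreted transglutaminase of the prostate, had a CPM of 1347 there and of at most 0.419 in the other 4 samples. Msmb, another secretory marker, had 0 counts in all 5 samples. The intact group therefore held a tumor with and a tumor nearly without secretory transcripts, and its values are given separately for each mouse below.

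Promoter sequences are shown for 4 members, because E2F genes are themselves known E2F targets and E2f7, E2f8, E2f3 and Rbl1 were all lower in every castrated mouse than in both intact mice. RefSeq windows (GRCm38.p6, from 250 bases before to 50 bases after the start) that match the start used in the count table were at hand for 6 members, namely E2f2, E2f3, E2f7, E2f8, Rbl1 and Rbl2. They were searched on both strands for an E2F motif, spelled TTTCCCGC, TTTCGCGC, TTTGGCGC or TTTGCCGC, and for the cell cycle homology element (CHR) bound by MuvB complexes, spelled TTTGAA. The motifs shared no base in any window searched. Capitals mark the matches, and each sequence reads 5′ to 3′ on the strand of its gene.
E2f3, chr13:29986064-29986123, minus strand, the 60 bases before the start: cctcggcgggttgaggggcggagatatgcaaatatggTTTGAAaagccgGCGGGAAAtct
E2f7, chr10:110745214-110745273, plus strand, from base -225 to base -166: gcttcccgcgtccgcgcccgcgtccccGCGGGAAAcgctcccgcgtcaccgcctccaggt
E2f8, chr7:48881597-48881656, minus strand, the 60 bases before the start: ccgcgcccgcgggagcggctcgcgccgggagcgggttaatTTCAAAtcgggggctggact
Rbl1, chr2:157204535-157204594, minus strand, the 60 bases before the start: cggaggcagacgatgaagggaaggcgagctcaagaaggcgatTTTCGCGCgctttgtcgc
The E2F match lay 11 to 4 bases before the start in E2f3, 18 to 11 bases before it in Rbl1 and 198 to 191 bases before it in E2f7. E2f2 had an E2F match as well, after its start at bases 40 to 47. E2f8 had no E2F match in these letters, and its capitals mark a CHR match on the opposite strand. E2F matches were thus in 4 of 6 member windows, whereas 2.87% of 17444 promoters and 3.89% of the 11040 promoters of tested genes held one. A CHR match was in 3 of 6 member windows (E2f3, E2f8 and Rbl2), in 15.9% of all promoters and in 12.4% of those of tested genes. A match is a stretch of letters and was not tested for binding here.

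To compare levels between genes, counts were scaled to gene length as TPM, which is also scaled to library size. E2f4 was the most abundant E2F gene, with a mean level of 43.3 ± 4.27 TPM (SD, n = 5 mice), and Rbl2 the most abundant pocket protein gene, with 41.6 ± 9.39. E2f5 at 25.7 ± 5.65 TPM and Rb1 at 24.1 ± 8.27 followed, then E2f3 at 17.9 ± 6.95 and Rbl1 at 12.3 ± 1.69. E2f8 at 5.93 ± 6.06, E2f1 at 4.99 ± 2.30 and E2f2 at 4.21 ± 1.57 TPM were low, and E2f7 at 1.0 ± 0.525 was lowest. Each gene's range over the 5 mice overlapped that of the next gene in this order, except for E2f2 and E2f7. The canonical repressors made up most of the E2F mRNA. Within the E2F total, E2f4 accounted for 42.6%, 49.0% and 47.8% in castrated mice 1, 2 and 3 and for 35.5% and 38.5% in intact mice 1 and 2, so that all castrated samples were above both intact samples. The share of E2f8 ran the other way, from 1.46% to 4.09% in castrated samples against 12.4% and 4.70% in intact mice 1 and 2.

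**Figure D1:**
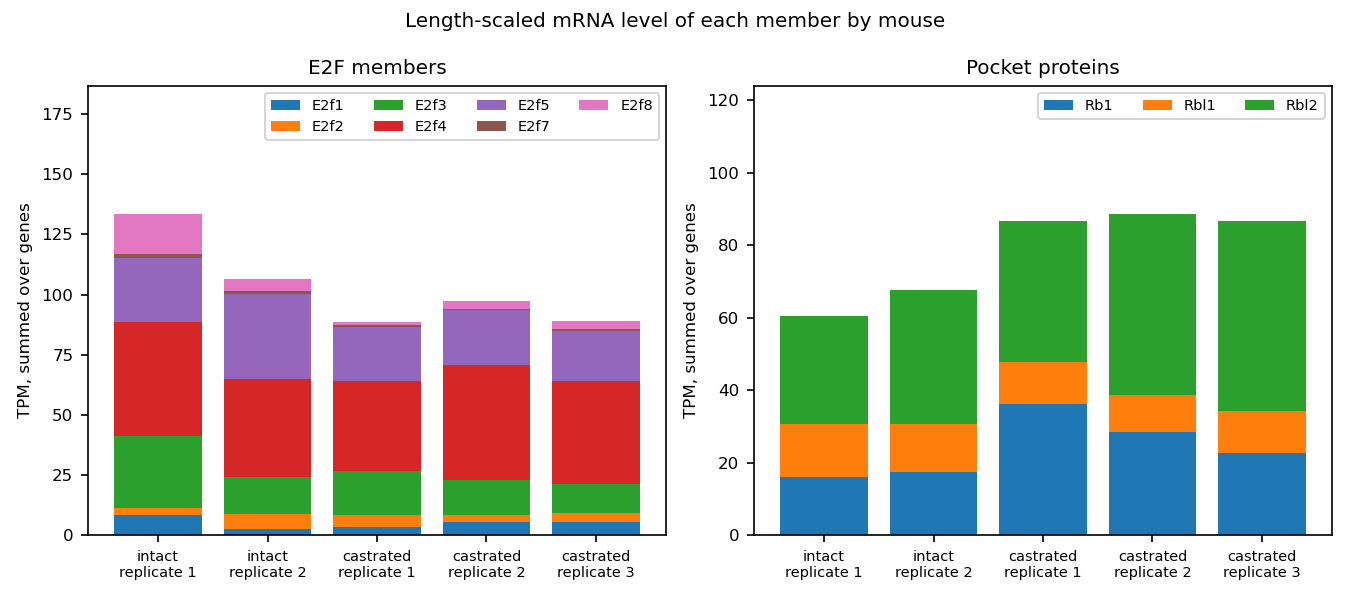
Length-scaled mRNA level (TPM, stacked bars starting at 0) of the 7 E2F genes (left) and the 3 pocket protein genes (right) in each mouse. The E2F total is 133 and 107 TPM in intact mice 1 and 2 and 88.7, 97.4 and 89.2 TPM in castrated mice 1, 2 and 3, while the pocket protein total is 60.4 and 67.7 TPM in intact and 86.6, 88.5 and 86.7 TPM in castrated samples.

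Castrated tumors had lower mean levels of all 7 E2F genes than intact tumors, by very different amounts. The atypical repressors E2f8 and E2f7 differed most, with fitted levels 4.07-fold and 2.73-fold higher in intact tumors, while among pocket protein genes Rb1 and Rbl2 were higher and Rbl1 was lower in castrated tumors. None of these differences passed the test after adjustment. Of 14612 genes, 0 (0%) met the study's call rule, a log2 fold change beyond 1 in either direction at an adjusted p under 0.05. The adjusted p of the 10 members ran from 0.294 to 0.860 by edgeR's quasi-likelihood test (Benjamini-Hochberg adjusted). The study itself, whose methods name TPM as the input, reported differentially expressed genes between these groups and named E2F among the enriched pathways. The S phase E2F targets listed below were lower in mean in castrated tumors. From the counts used here, 989 genes were called under DESeq2 and 369 under a likelihood ratio test in edgeR. By the quasi-likelihood test, 2195 genes (15%) had an unadjusted p under 0.05. Among the members, 2 of 10 had such a p, E2f7 and E2f8, and both were lower in castrated samples, as were 6.28% of tested genes at that p, while 8.74% were higher. That count of members was 1 without castrated mouse 2 or castrated mouse 3, where 7.7% and 7.1% of tested genes had such a p. It was 3 without castrated mouse 1, where 16.4% of tested genes had such a p. When replicate numbers were blocked it was 0, against 7.16% of tested genes. That fit pairs different animals by label only, leaves castrated mouse 3 without an intact mouse of its number, and has less power. In 5 of 10 members (E2f3, E2f5, E2f7, E2f8 and Rbl1) every castrated sample was below both intact samples, which held for 16.1% of tested genes. In 1 member, Rb1, every castrated sample was above both, which held for 17% of tested genes, so the groups were free of overlap in 6 of 10 members and in 33.1% of tested genes. On the TPM level 4 members were below, since E2f3 overlapped, and 2 were above, Rb1 and Rbl2. The sign was negative for 8 of 10 members and for 52.1% of tested genes, and the median log2 fold change was -0.45 over the members and -0.03 over all tested genes.

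**Figure D2:**
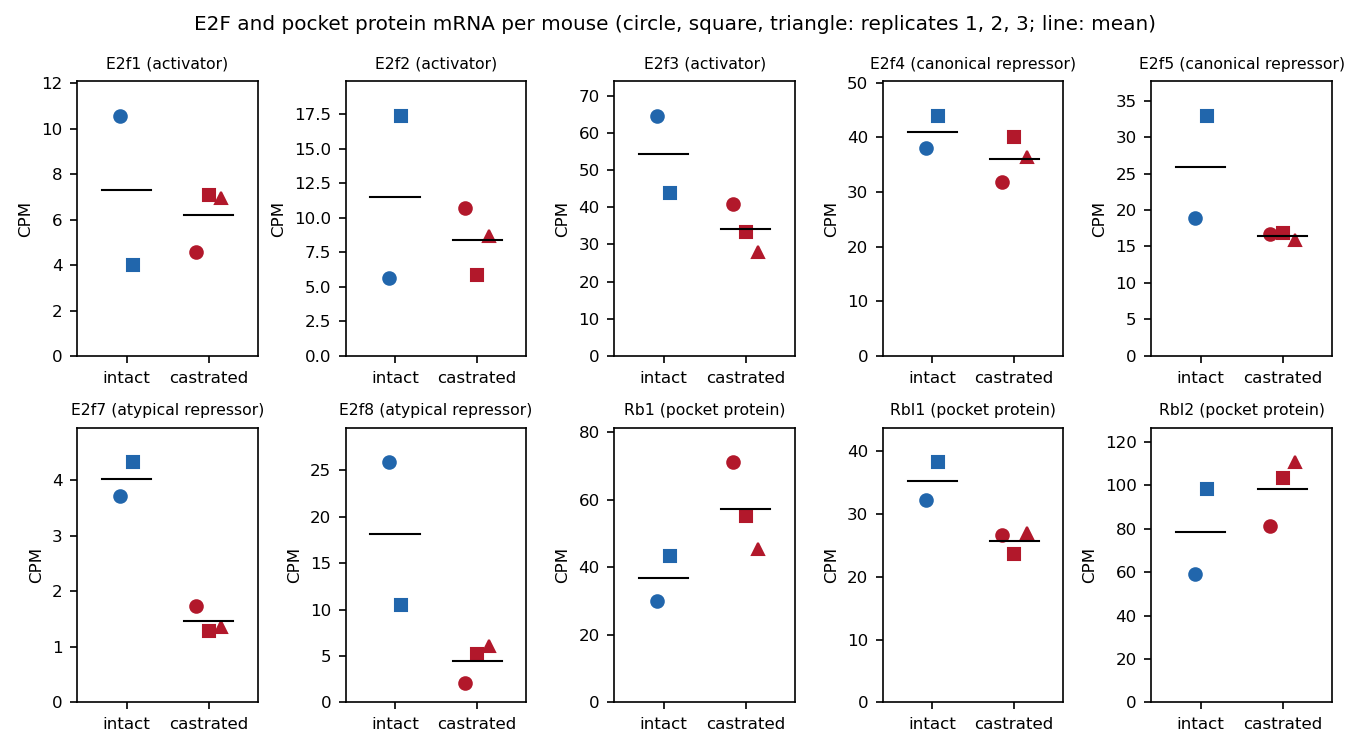
CPM of each member (vertical axes start at 0 and differ between panels) in intact and castrated mice, with 1 point per mouse and a line at the group mean. The groups do not overlap in E2f3, E2f5, E2f7, E2f8, Rbl1 and Rb1, and only Rb1 is higher in all castrated mice among these 6 genes.

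E2f8, an atypical repressor whose protein carries a pair of DNA-binding domains and needs no dimer partner, had a CPM of 2.13, 5.20 and 6.09 in castrated mice 1, 2 and 3, and of 25.9 and 10.5 in intact mice 1 and 2. Every castrated sample was below both intact samples, and in CPM the intact samples were further apart than the castrated ones. The log2 fold change was -2.02 ± 0.61 (SE), at an unadjusted p of 0.0194 and an adjusted p of 0.297 by edgeR's quasi-likelihood test (Benjamini-Hochberg adjusted). Only 1.36% of tested genes had a more negative value. Without intact mouse 1, where E2f8 was highest, the log2 fold change was -1.21. The gene lies on chromosome 7 from 48866429 to 48881596 (minus strand, mm10).

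E2f7, the partner of E2f8 in function and also an atypical repressor, was the scarcest member. Its counts were 50, 24 and 28 in castrated mice 1, 2 and 3 and 83 and 93 in intact mice 1 and 2, so counting error weighs more on E2f7 than on the other 9 genes. Scaled to library size, this was a CPM of 1.74, 1.29 and 1.36 in castrated and of 3.72 and 4.32 in intact samples. The groups were well separated and tight. The log2 fold change of E2f7 was -1.45 ± 0.42 (SE), at an unadjusted p of 0.0164 and an adjusted p of 0.294 by edgeR's quasi-likelihood test (Benjamini-Hochberg adjusted). It stayed between -1.60 and -1.36 when any of the 5 samples was left out. With limma on log2(TPM + 1), which changes the scaling, the offset and the fit together, it was -0.66. E2f7 lies on chromosome 10 from 110745439 to 110787384 (plus strand). DESeq2 called both atypical repressors, with an adjusted p of 0.0262 for E2f7 and 0.0479 for E2f8. With the replicate number as a block, neither had an unadjusted p under 0.05 by edgeR's quasi-likelihood test. The block pairs different animals and lowers power, so this does not bear on either gene.

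Activator E2Fs did not share a single pattern. E2f3, the most abundant activator, had a CPM of 40.9, 33.3 and 27.8 in castrated mice 1, 2 and 3 and of 64.6 and 43.8 in intact mice 1 and 2. All castrated samples were below both intact samples, though castrated mouse 1 came close to intact mouse 2. The log2 fold change was -0.67 ± 0.28 (SE), at an adjusted p of 0.344 by edgeR's quasi-likelihood test (Benjamini-Hochberg adjusted), and was -0.34 without intact mouse 1. E2f1, the activator best known for driving entry into S phase, had a CPM of 4.57, 7.08 and 6.97 in castrated samples and of 10.6 and 4.0 in intact mice 1 and 2. The intact mice held both the highest and the lowest value, so the groups overlapped. E2f2, an activator close to E2f1, showed the opposite order of the intact mice, with a CPM of 5.65 and 17.4 in intact mice 1 and 2 and of 10.7, 5.85 and 8.67 in castrated samples. For E2f1 the log2 fold change was -0.23 ± 0.52 (SE) and for E2f2 -0.45 ± 0.56 (SE), each smaller than its error. Without intact mouse 1 that of E2f1 was 0.65, and without intact mouse 2 that of E2f2 was 0.53.

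The canonical repressors had smaller log2 fold changes than the atypical ones. E2f4, the main E2F of resting cells, had a CPM of 31.9, 40.0 and 36.4 in castrated mice 1, 2 and 3 and of 38.0 and 43.9 in intact mice 1 and 2. The groups overlapped, and the log2 fold change of -0.18 ± 0.21 (SE) was smaller than its error. E2f5, which shares its pocket protein partners with E2f4, had a CPM of 16.6, 16.9 and 15.8 in castrated samples and of 18.9 and 32.9 in intact mice 1 and 2. Its castrated samples were nearly identical and all below the intact ones, but the log2 fold change of -0.65 ± 0.31 (SE) rested largely on intact mouse 2 and was -0.24 without it.

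Among pocket proteins, Rb1 encodes the retinoblastoma protein, the main partner of activator E2Fs. Its CPM was 71.1, 55.3 and 45.4 in castrated mice 1, 2 and 3 and 30.1 and 43.4 in intact mice 1 and 2. All castrated samples were above both intact samples, the nearest pair being castrated mouse 3 and intact mouse 2. The log2 fold change was 0.64 ± 0.29 (SE), at an unadjusted p of 0.0767 and an adjusted p of 0.370 by edgeR's quasi-likelihood test (Benjamini-Hochberg adjusted). Rbl1, which encodes p107 and is itself an E2F target, had a CPM of 26.7, 23.5 and 26.9 in castrated and of 32.1 and 38.2 in intact samples. It was lower in every castrated mouse, with a log2 fold change of -0.45 ± 0.21 (SE) and an adjusted p of 0.380 by edgeR's quasi-likelihood test (Benjamini-Hochberg adjusted). Rbl2, which encodes p130, the pocket protein of resting cells, had a CPM of 81.2, 103 and 111 in castrated and of 59.0 and 98.4 in intact samples. The groups overlapped because of intact mouse 2, and the log2 fold change was 0.32 ± 0.29 (SE) and 0.02 without intact mouse 1. The sources used here do not state whether reads were counted by strand, and Rb1 and Rbl2 overlap genes on the opposite strand. Lpar6, a receptor gene with a mean CPM of 41.6, lies inside Rb1, and Aktip, with a mean CPM of 93.1, shares 12064 bases of its span with Rbl2. Whole gene spans were compared and not exons, so how far these overlaps affect both pocket protein values was not tested. Shorter overlaps on the opposite strand were present for E2f8, which shares 297 bases with Gm2788 (mean CPM 0.279), and for E2f5, which shares 21 bases with Rbis (mean CPM 67.5).

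Rb1 and Rbl1 thus differed between the groups in opposite directions. The log2 CPM of Rbl1 minus that of Rb1, a difference within each mouse, was -1.41, -1.23 and -0.75 in castrated mice 1, 2 and 3 and 0.10 and -0.18 in intact mice 1 and 2. The group means, -1.13 ± 0.34 (SD, n = 3) and -0.04 ± 0.20 (SD, n = 2), were 1.09 apart. The pair was picked after its values were seen, and since Rb1 was higher and Rbl1 lower in every castrated mouse, the separation of this difference follows from theirs. Within the summed TPM of the pocket proteins, Rbl1 held 11.7% to 13.4% in castrated samples and 24.3% and 19.4% in intact mice 1 and 2.

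Next, the activator and repressor classes were set against each other in each mouse by their mean log2 CPM. The activator mean was 3.67, 3.49 and 3.58 in castrated mice 1, 2 and 3 and 3.98 and 3.87 in intact mice 1 and 2, a difference of -0.35. The canonical repressor mean was 4.53, 4.71 and 4.59 in castrated and 4.75 and 5.25 in intact samples, a difference of -0.39. The atypical repressor mean was 1.01, 1.43 and 1.58 in castrated and 3.31 and 2.77 in intact samples, a difference of -1.70. In each of these 3 classes every castrated mouse was below both intact mice, and the atypical class was furthest apart. On summed TPM the activators overlapped, at 26.4, 22.9 and 21.3 in castrated and 41.0 and 24.0 in intact mice. The pocket protein mean was 5.75, 5.68 and 5.69 in castrated and 5.27 and 5.77 in intact samples, and the groups overlapped, whereas on summed TPM every castrated mouse was above both intact mice, at 86.6, 88.5 and 86.7 against 60.4 and 67.7.

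Activators minus all 4 repressors gave a difference of 0.90, 0.42 and 0.50 on the log2 scale in castrated mice 1, 2 and 3 and of -0.05 and -0.14 in intact mice 1 and 2. The castrated mean of 0.61 ± 0.26 (SD, n = 3) exceeded the intact mean of -0.09 ± 0.06 (SD, n = 2) by 0.70, and the groups did not overlap. The separation depended on which repressors were counted. Against E2f4 and E2f5 alone, activators stood at -0.86, -1.21 and -1.01 in castrated and at -0.77 and -1.38 in intact samples, which overlapped and whose means were 0.05 apart. Against E2f7 and E2f8 alone, they stood at 2.66, 2.06 and 2.0 in castrated and at 0.67 and 1.10 in intact samples, 1.35 apart. No test was run on these scores, since the genes in them were chosen with results of these data known.

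**Figure D3:**
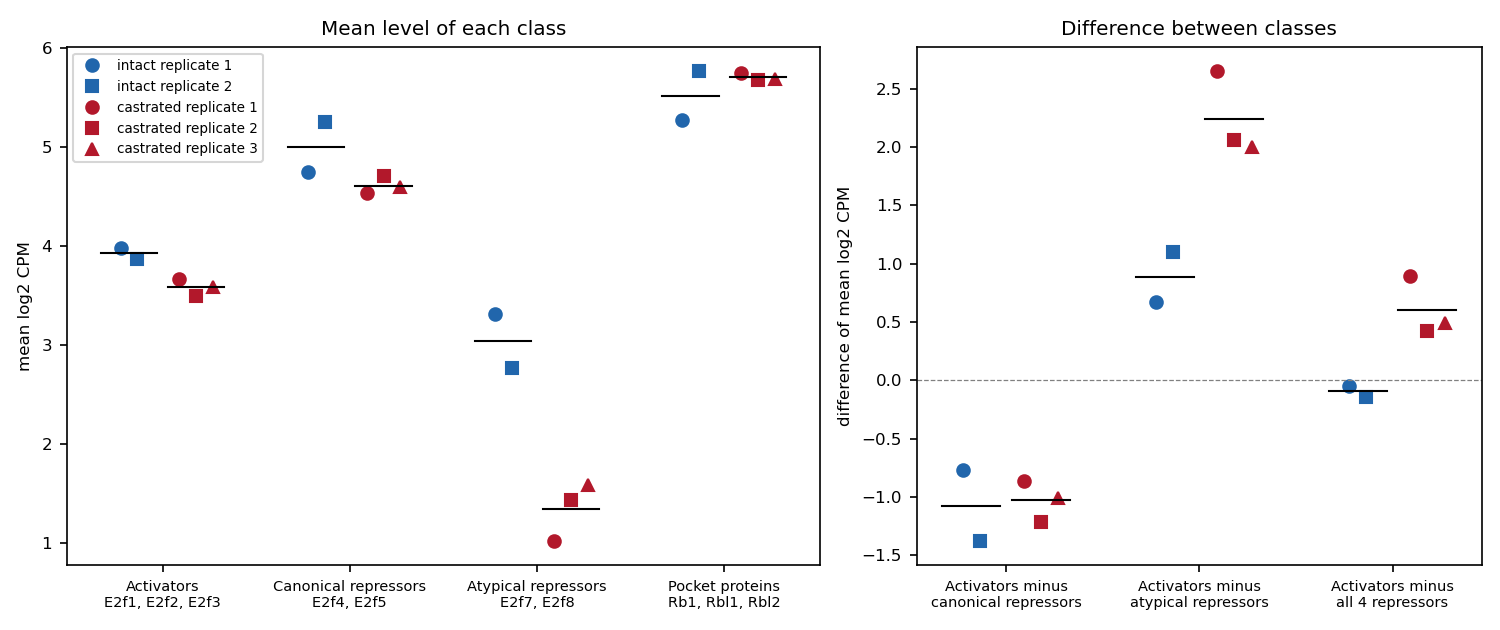
Mean log2 CPM of each class (left) and the difference of class means within each mouse (right), with 1 point per mouse and a line at the group mean. The castrated mice lie below both intact mice for activators, canonical repressors and atypical repressors, and the activators minus atypical repressors are at 2.0 to 2.66 in castrated mice against 0.67 and 1.10 in intact mice.

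E2f1 and E2f8 showed this at the level of a gene pair, which was picked after its values were seen. On the length-scaled TPM level, E2f1 was above E2f8 in each castrated mouse, at 3.47, 5.42 and 5.23 against 1.29, 3.18 and 3.65 in mice 1, 2 and 3. In both intact mice E2f8 was above E2f1, at 16.5 and 5.01 against 8.45 and 2.40 TPM in mice 1 and 2. Both genes were higher in intact mouse 1 than in intact mouse 2, and the order of the pair was the same in each. E2f7, the other atypical repressor, did not separate the groups in this way. Its log2 CPM minus that of E2f1 was -1.35, -2.38 and -2.28 in castrated mice 1, 2 and 3. In intact mice 1 and 2 it was -1.49 and 0.11, so the groups overlapped.

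The genes with the pattern over the 5 mice most like that of a member were found from the root mean square (RMS) difference of log2 CPM, after each gene was centred on its own mean. For E2f1 these were Cyp51, a sterol synthesis enzyme (RMS difference 0.0427), Pam, B3glct, Trp53i11 and Dusp10, the last at 0.124, where the median over 14611 other genes was 0.667. For Rb1 they were Sox13 (0.0715), Bscl2, Brd3os, Eng and Dnajc16 (0.125), against a median of 0.596. With only 5 mice and so many genes, close patterns arise in number.

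The partners and effectors of the E2F and pocket proteins were then described from lists of known members of each group. Tfdp1 and Tfdp2, which encode the dimer partners that typical E2Fs need to bind DNA, and E2f6, a repressor that binds no pocket protein, were all lower in every castrated mouse than in both intact mice. The same held for 16.1% of all tested genes. Tfdp1 had a CPM of 66.9, 51.9 and 51.6 in castrated and of 85.5 and 84.7 in intact samples, with a log2 fold change of -0.58 ± 0.20 (SE) and an unadjusted p of 0.0303 by edgeR's quasi-likelihood test. For Tfdp2 and E2f6 the log2 fold changes were -0.21 and -0.20, about the size of their errors of 0.19 and 0.20.

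MuvB is a protein core that joins Rbl1 or Rbl2 and E2f4 to silence cell cycle genes, and joins MYBL2 and FOXM1 later in the cycle to activate mitotic genes. Of 8 genes on this list, 4 had a negative and 4 a positive log2 fold change, with a median of -0.15. The core genes were near 0, at 0.02 for Lin37, 0.10 for Lin52, -0.33 for Lin54 and 0.05 for Rbbp4, and at -0.49 for Lin9, whose groups did not overlap. The activators Mybl2 and Foxm1 stood apart from the core. Mybl2 had a CPM of 1.12, 2.25 and 2.29 in castrated and of 5.83 and 5.25 in intact samples (log2 fold change -1.56 ± 0.48, SE). Foxm1 had a CPM of 4.01, 7.45 and 6.67 in castrated and of 16.4 and 16.1 in intact samples (log2 fold change -1.43 ± 0.37, SE). These were the 2 of 8 genes with an unadjusted p under 0.05 by edgeR's quasi-likelihood test, and Mybl1, a relative of Mybl2, was at 0.68 ± 0.44. Of all tested genes, 15% had such a p in either direction and 6.28% had it while lower in castrated samples.

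S phase targets of E2F, a list of 28 genes for replication licensing, DNA synthesis and nucleotide supply, were all lower in mean in castrated tumors. In 20 of 28 every castrated sample was below both intact samples, and 12 of 28 had an unadjusted p under 0.05 by edgeR's quasi-likelihood test, which left 0 after adjustment. Over all tested genes these shares were 16.1% and, for lower genes, 6.28%, which also serve as the background for the G2 and mitosis list. The median log2 fold change was -0.72, between the values of the activators and those of the atypical repressors. The lowest were Mcm10, a DNA replication factor (-1.87), and Ccne2, a cyclin of the G1 to S transition (-1.79). The highest were Mcm6, a subunit of the replicative helicase (-0.16), and Slbp, which binds histone mRNA (-0.06). Ccne1, a classical E2F1 target, had a CPM of 2.65, 3.16 and 4.68 in castrated and of 11.4 and 4.18 in intact samples, and the groups overlapped.

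Genes of G2 and mitosis controlled through MuvB complexes had a more negative median. All 25 had a negative log2 fold change, 24 of 25 had no overlap between groups, 23 of 25 had an unadjusted p under 0.05 by edgeR's quasi-likelihood test (0 after adjustment), with a median log2 fold change of -1.64. The lowest were Cenpf, a kinetochore protein (-2.49), and Cdc25c, the phosphatase that activates the mitotic kinase (-2.15), and the highest were Cdc25b (-0.50) and Bub1b, a spindle checkpoint kinase (-1.18). Mki67, the proliferation marker, had a CPM of 18.7, 30.5 and 40.3 in castrated and of 101 and 128 in intact samples. Summed over the list, CPM was 143, 204 and 265 in castrated mice 1, 2 and 3 and 528 and 747 in intact mice 1 and 2. For comparison, E2f8 and E2f7 were at -2.02 and -1.45, and the other 5 E2F genes ran from -0.67 to -0.18. The G2 and mitosis list ran from -2.49 to -0.50 and held E2f7 and E2f8 in its range. E2f3 at -0.67 and E2f5 at -0.65 fell in it only through Cdc25b, since the next gene was Bub1b at -1.18. The S phase list, from -1.87 to -0.06, held all E2F genes but E2f8. The promoter motifs were counted in both lists, whose genes were listed as known E2F or MuvB targets, so a difference in motifs is partly built in. Among promoters of tested genes, 3.89% held E2F letters and 12.4% held CHR letters. E2F letters were found in 8 of 22 S phase windows and in 1 of 20 windows of the G2 and mitosis list, while CHR letters were found in 3 of 22 and in 14 of 20. Among the members searched, CHR letters were in E2f3, E2f8 and Rbl2 and not in E2f2, E2f7 or Rbl1.

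Upstream of the pocket proteins, the G1 cyclins, their kinases and the kinase inhibitors did not move as a group. Of 13 genes, 7 were higher and 6 lower in mean in castrated samples, with a median log2 fold change of 0.16. An unadjusted p under 0.05 by edgeR's quasi-likelihood test was found for 2 of 13, in opposite directions, and for 15% of all tested genes, so the list did not stand out. Cdkn2a, which encodes the inhibitor p16 of the kinases that phosphorylate the retinoblastoma protein as well as the p53 regulator ARF, had a CPM of 20.1, 15.6 and 5.80 in castrated and of 4.21 and 4.46 in intact samples, with a log2 fold change of 1.67 ± 0.60 (SE). Every castrated sample was above both intact samples, though castrated mouse 3 only narrowly. Cdk2, the kinase partner of E type cyclins, had a CPM of 21.8, 29.2 and 25.2 in castrated and of 44.0 and 39.6 in intact samples, with a log2 fold change of -0.72 ± 0.22 (SE). Cdkn1a, which encodes the inhibitor p21, was at 0.91 ± 0.56 and Ccnd2 at -0.60 ± 0.50, and both overlapped between groups. Ccnd1, a cyclin that β-catenin can induce, had a CPM of 806 in castrated mouse 1 and of 154 to 329 in the other 4 samples.

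**Figure D4:**
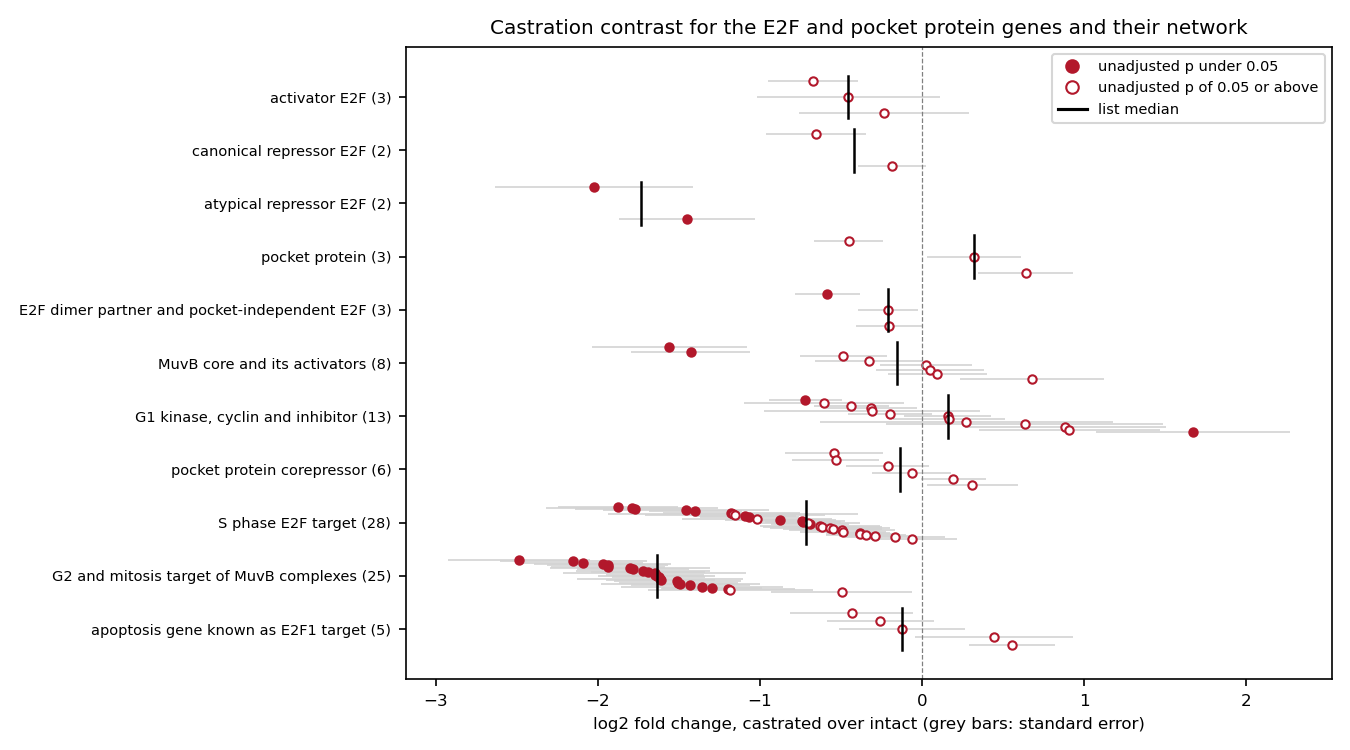
Log2 fold change of castrated over intact samples for each member class and network list, with 1 point per tested gene, grey bars for the standard error, filled points for an unadjusted p under 0.05 and a black line at the list median. All genes of the S phase and the G2 and mitosis lists lie below 0, with medians of -0.72 and -1.64, and E2f7 and E2f8 lie at -1.45 and -2.02.

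Marker mRNA of several cell types differed between the groups along with these genes. Of all tested genes, 17% were above both intact samples in every castrated sample, which is the background for all marker counts that follow. All 6 macrophage markers were higher in every castrated mouse than in both intact mice, with a summed CPM of 650, 1873 and 1026 in castrated mice 1, 2 and 3 and of 380 and 399 in intact mice 1 and 2, and Cd68 the most abundant. The same held for 4 of 4 B cell markers, led by Cd79a, at 9.25, 58.2 and 68.1 against 0.986 and 3.72, and for 4 of 5 smooth muscle markers, led by Acta2, at 249, 485 and 469 against 139 and 86.6. Adipocyte markers, led by Fabp4, were high in 2 of 3 castrated mice, with a summed CPM of 437 and 369 in castrated mice 2 and 3 against 38.0 in castrated mouse 1 and 26.1 and 52.2 in intact samples, and Lep had 0 counts in the latter 3. All 4 tested neuroendocrine markers were higher in castrated mice, led by Chgb, with a summed CPM over the list of 17.5, 25.3 and 29.7 against 1.43 and 2.18.

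Fibroblast markers, led by Dcn, were higher without overlap for 3 of 5 genes, with a summed CPM of 3109, 4448 and 6122 in castrated against 2924 and 1648 in intact samples. Of 5 endothelial markers, Pecam1, Kdr and Tek were higher without overlap, whereas Cdh5, the most abundant, had a log2 fold change of -0.87 and overlapped, and the summed CPM was 347, 224 and 266 against 371 and 131. Among T cell markers, led by Cd3g, 0 of 5 were free of overlap (6.28, 31.3 and 31.9 against 1.43 and 18.5), and among neutrophil markers, led by S100a9, 1 of 4 (165, 136 and 91.8 against 67.0 and 117). Epithelial markers overlapped between the groups for 7 of 7 genes, with a summed CPM of 3257, 3038 and 3945 in castrated and of 4527 and 3287 in intact samples. Prostate markers (87.4, 129.9 and 227 against 29.0 and 2381) and those of urothelium and seminal vesicle (24.3, 50.1 and 59.7 against 17.1 and 143) were highest in intact mouse 2. The part of these cell types in the E2F and pocket protein values was not tested.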

How the data were processed

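Bulk RNA-seq counts of 3 castrated and 2 intact TripleTg tumors were analyzed, grouped by their labels, and none was dropped. After trimming and alignment to mm10, the authors deposited raw counts per gene without normalization, and the submitters' processing notes name Trimmomatic 0.39, STAR 2.7.9 and HTSeq 2.0.2. Genes whose CPM exceeded 1 in 2 or more samples were fitted with TMM normalization and edgeR's quasi-likelihood test (edgeR 4.0.16, R 4.3.3, p-values adjusted over all 14612 genes), which follows the study's methods except that counts, not TPM, were the input. Calls needed a log2 fold change beyond 1 in either direction at an adjusted p under 0.05. Log2 CPM used a prior count of 2, and TPM used the deposited gene lengths. Total counts ran from 18951782 to 28015507 and the common dispersion was 0.238, so the spread between mice outweighs counting error except in scarce genes. Pairs of samples in a group differed far beyond sampling noise, with a chi-square per gene of 134 or more.

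The members and lists were chosen with earlier results of these data known. All members were named. Lists of at most 8 genes were named whole, and longer ones by their 2 largest and 2 smallest log2 fold changes plus Mki67, Ccne1, Ccnd1, Cdkn1a and Cdkn2a. A few list genes are not reported here by name, though they remain in the counts and sums. For E2f1 and Rb1, the 5 genes closest in pattern were named. The procedure was tested on simulated data. Alternatives used DESeq2 1.42.0, limma 3.58.1 and other scalings, filters and sample sets. Promoters came from RefSeq (GRCm38.p6).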

Additional observations from a re-analysis of the deposited data

How the results depend on the processing

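The count of 0 called genes became 989 under DESeq2 and 369 under a likelihood ratio test, and 0 to 1 when a sample was left out. The count of 2 members with an unadjusted p under 0.05 was 1 to 3 when a castrated sample was left out, while the share of all tested genes ran from 7.1% to 16.4%. E2f7 missed that p without castrated mouse 2 or 3, and E2f8 without intact mouse 1. Same-numbered samples are different animals, whose deviations correlated at 0.149 and -0.045. Blocking on the replicate number, the count of members was 0 and the share of all genes 7.16%. Castrated mouse 3 has no intact mouse of its number, so this fit has less power than the unblocked one.

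The gap of 0.70 between activators and repressors was 0.46 on log2(TPM + 1), 0.35 without E2f2 and E2f8, 0.046 with E2f4 and E2f5 as the only repressors, 1.35 with E2f7 and E2f8 as the only ones, and 0.39 without E2f8, the last chosen after seeing the data, as were the fits without E2f7, with the older quasi-likelihood fit and with other scalings of the overlap counts. The gap was positive in all of these, though at 0.046 it was near 0 and the groups overlapped. When a sample was left out, the gap of 0.70 ran from 0.55 to 0.79. The median of all genes was 0.125 with limma on log2(TPM + 1), which changes the scaling, the offset and the fit together. On TPM, 4 members were below and 2 above both intact mice; with other scalings of counts the number below was 5.

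Among members, only E2f1 (-0.81 to 0.65) and E2f2 (-1.03 to 0.53) changed sign when a sample was left out. When a sample was left out, the median of the G1 list ran from -0.10 (without castrated mouse 1, and -0.098 without intact mouse 2) to 0.43, and that of the corepressors from -0.26 to 0.12 (without intact mouse 1). For the apoptosis genes it was 0.16 without a filter or with filterByExpr, 0.0014 with limma voom, 0.13 on log2(TPM + 1), 0.086 with the replicate block and -0.54 to 0.33 when a sample was left out, the latter without intact mouse 1. With 3 and 2 mice, and low counts for E2f7, small differences could not be resolved.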

Other observations

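Corepressors that pocket proteins recruit to E2F promoters differed little between the groups. Of 6 genes, 4 had a negative and 2 a positive log2 fold change, with a median of -0.14, and 0 of 6 had an unadjusted p under 0.05 by edgeR's quasi-likelihood test. Among all tested genes 15% had such a p. Suv39h1, a histone H3 lysine methyltransferase, was lower in every castrated mouse than in both intact mice, with a CPM of 16.5, 23.1 and 21.9 against 36.3 and 23.4 and a log2 fold change of -0.54 ± 0.30 (SE). The deacetylase genes Hdac1 and Hdac2 were at 0.31 and -0.21, Sin3b at -0.06, Arid4a at 0.19 and the demethylase gene Kdm5a at -0.53, and these 5 overlapped between groups.

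Apoptosis genes known as E2F1 targets were likewise mixed. Of 6 genes, 5 passed the filter and Trp73 did not, 3 of 5 had a negative log2 fold change, the median was -0.12, and 0 of 5 had an unadjusted p under 0.05 by edgeR's quasi-likelihood test. The share of all tested genes with such a p was 15%. Apaf1 was at -0.26, Bbc3 at 0.45 and Bcl2l11 at -0.43, and these 3 overlapped between groups.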
